A study of Homo sapiens with 12 samples.

Results

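The genes described here are 50 genes of DNA replication and nucleotide synthesis, taken as a fixed list of gene symbols. The rule that lists them names no measured value, but the list was chosen with earlier results of these data known. All 50 were among the 56638 gene symbols counted, and all 50 were among the 16080 genes that passed the filter on low counts. By role, 16 belong to origin recognition and licensing, 7 to helicase activation, 9 to the polymerases and primase, 11 to the clamp, its loader and the lagging strand, 4 to nucleotide synthesis and 3 to chromatin assembly. RNA was sequenced from 501Mel, an established human melanoma cell line with an activated BRAF kinase, after 48 h of exposure in culture. The 6 groups of 2 libraries were vehicle (DMSO), Vem (vemurafenib, a BRAF inhibitor, 1 μM), RSV (resveratrol, used in the study as an antagonist of the aryl hydrocarbon receptor AhR, 5 μM), RSV+Vem (5 μM and 1 μM), TCDD (the dioxin that is a potent AhR agonist, 10 nM) and RSV+TCDD. For RSV+TCDD the protocol gives 5 μM RSV with 10 nM TCDD, whereas the label of its libraries gives 1 nM TCDD. The design asks how the BRAF inhibitor and the AhR ligand changed the RNA of these cells, and whether RSV altered either change. All libraries come from 1 cell line, and the labels do not say that replicates were separate cultures, so each p-value measures only the spread between these libraries.

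A cell copies its genome once per division. During G1 the origin recognition complex, CDC6 and CDT1 load the MCM2-7 ring onto DNA, which licenses the origin. At the start of S phase the kinase CDC7 with its activator DBF4 prepares the ring, and CDC45 and the GINS complex join it to form the working helicase. Primase and DNA polymerase α then lay primers, polymerases ε and δ extend them, and PCNA clamps the polymerases to the template, while ribonucleotide reductase, thymidylate synthase and thymidine kinase supply the nucleotides. Transcription of most of these genes is known to follow the cell cycle through E2F factors, which bind short elements near the start site and are held back by RB proteins in resting cells.

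Gene counts per library ranged from 8378655, in RSV+Vem replicate 2, to 25076925, in vehicle replicate 2. RIN values were lowest in the RSV+Vem libraries, at 8.7 and 8.6, and between 9.1 and 9.7 in the others. The ERCC spike-ins held between 0.0310% and 0.0936% of the counts, and their share differed between the RSV+Vem libraries, at 0.0389% and 0.0903%. The share was also high in the RSV+TCDD libraries, at 0.0630% and 0.0936%, against 0.0349% and 0.0413% with RSV. The 7 melanocyte and melanoma markers (MITF, SOX10, PMEL, MLANA, TYR, TYRP1 and DCT) were all detected, with the lowest level of any of them at 390.2 CPM, for SOX10 in RSV replicate 2. Of the markers of other cell types, KRT10 of 4 keratinocyte genes and COL1A1 and PDGFRA of 4 fibroblast genes passed the filter, and none of 4 leukocyte and 2 endothelial genes did. The highest level of COL1A1 was 2.59 CPM, in RSV replicate 1, and that of PDGFRA 1.80 CPM, in RSV+Vem replicate 2. At these low levels PDGFRA was called higher and COL1A1 lower with Vem, PDGFRA was called higher with RSV, and the part of such cells in the results was not tested. In the vehicle group, 44 of the 50 genes were higher in replicate 2 than in replicate 1, with a median log2 ratio of 0.21. The count was 42 with Vem (median 0.10) and 37 with TCDD (0.08). It was 31 with RSV, 31 with RSV+Vem and 29 with RSV+TCDD.

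Exposure to Vem lowered nearly the whole replication gene set. The 50 genes held 0.547% and 0.634% of the gene counts with vehicle and 0.206% and 0.220% with Vem, so both Vem libraries lay far below both vehicle libraries. Of the 50 genes, 49 fell and none rose in Vem against vehicle by the quasi-likelihood F test of edgeR (Benjamini-Hochberg adjusted p below 0.05, over all tested genes), where 26.9% of all tested genes were called lower and 25.5% higher. Their median log2 fold change was -1.35, against -0.03 over all tested genes. The largest falls were those of POLE at -3.05, DBF4 at -2.11, MCM10 at -2.10, CDC45 at -2.06 and RFC3 at -2.01. ORC5 was the exception, with a log2 fold change of 0.17 ± 0.13, edgeR adjusted p = 0.272. In bulk RNA, fewer cells in S phase and less RNA of these genes per cell cannot be told apart.

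With RSV present the fall was smaller. The share of gene counts on the 50 genes was 0.660% and 0.653% with RSV, and 0.436% and 0.452% with RSV+Vem, which placed the combination between Vem and vehicle. It was 0.532% and 0.561% with TCDD and 0.617% and 0.632% with RSV+TCDD, both within or close to the range of the vehicle libraries. Shares of counts depend on the abundant genes of each library, and counts were scaled by the trimmed mean of M values (TMM) for the levels that follow, given as TMM-scaled CPM, the count of a gene relative to the scaled total of its library, and for the tests.

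**Figure D1:**
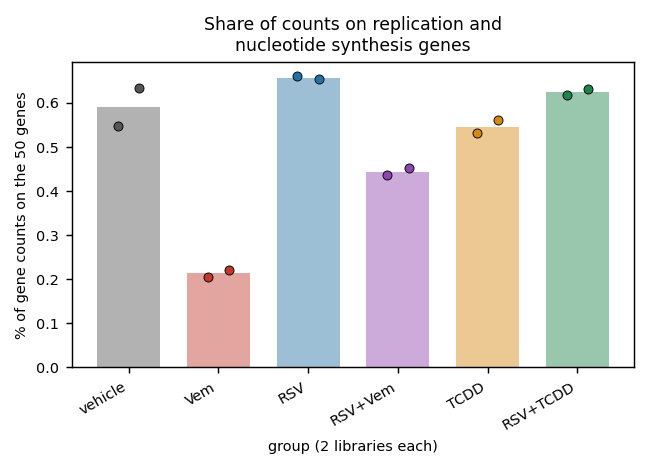
Percent of gene counts on the 50 replication and nucleotide synthesis genes (vertical axis) in each of the 6 groups; points are libraries and bars are the means of 2. The Vem libraries are lowest, at 0.206% and 0.220%, and the RSV+Vem libraries, at 0.436% and 0.452%, lie between them and vehicle.

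**Figure D2:**
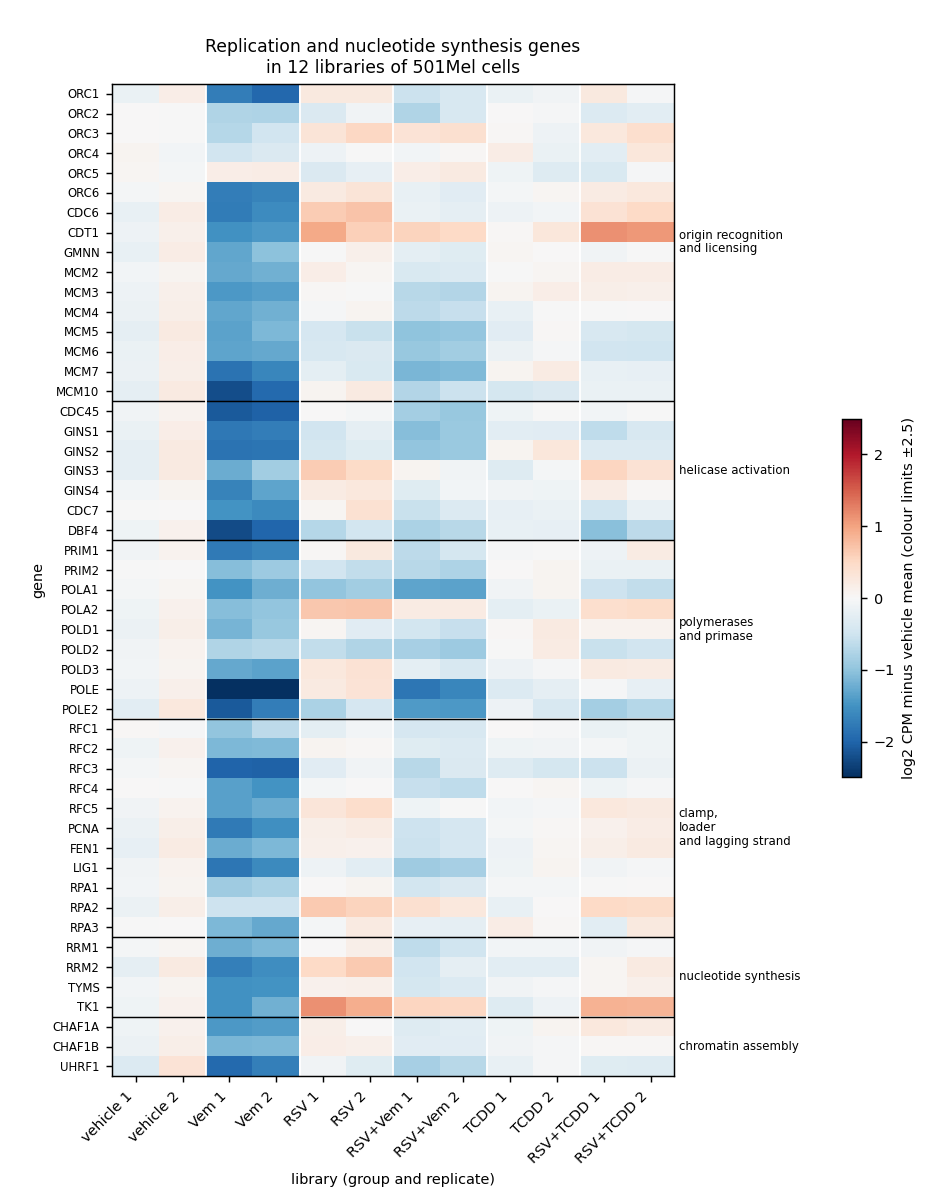
TMM-scaled log2 CPM of each of the 50 genes (rows, grouped by role) in each of the 12 libraries (columns), minus the mean of that gene in the vehicle libraries; colour runs over a fixed log2 range and values beyond are drawn at the limit. The Vem columns are blue for every gene but ORC5, and the RSV+Vem columns are paler, with POLE still deep blue.

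The DNA just upstream of the start sites was searched for short motif letters, because the members moved together with Vem. RefSeq promoter windows on GRCh38.p14, 300 bases long and reaching past the start site, were matched by symbol for 44 of the 50 genes, 1 window per gene. The E2F letters TTTCCCGC, TTTCGCGC, TTTGCCGC or TTTGGCGC, on either strand, stood in 19 of the 44 windows (43.2%), against 908 of 27305 windows of all genes (3.33%) and 5.25% of those of the tested genes. The CCAAT box (CCAAT) was in 54.5% of the windows of the set, 35.7% of all and 36.8% of the tested ones. The GC box (GGGCGG) was in 70.5%, 44.6% and 68.9%, the letters of the cell cycle genes homology region (TTTGAA) in 4.55%, 15.4% and 9.84%, and the core of the AhR response element (GCGTG) in 54.5%, 36.3% and 50.5%, all on both strands. These motifs can overlap each other, and a match is a description of letters, not of binding. The 19 genes with E2F letters had a median log2 fold change of -1.65 in Vem against vehicle, ranging from -3.05 to -0.60, and the 25 without them one of -1.20, ranging from -2.11 to 0.17, so the ranges overlapped widely.

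Stretches of 110 bases from these windows, written 5′ to 3′ on the gene's strand and all upstream of the start site, are shown for the gene that fell most (POLE), for the clamp (PCNA), for the window with most matches (MCM6), for 2 genes that moved in opposite directions with RSV (CDT1 and POLA1) and for 2 without E2F letters, TK1, which had the largest rise with RSV, and ORC5, the gene that did not fall with Vem. Capitals mark E2F letters on either strand, and the 4 matches of MCM6 overlap in 2 runs.
POLE (chr12:132687343-132687452, minus strand): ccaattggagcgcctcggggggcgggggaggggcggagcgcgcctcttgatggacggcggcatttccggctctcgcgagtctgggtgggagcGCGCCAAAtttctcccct
PCNA (chr20:5126623-5126732, minus strand): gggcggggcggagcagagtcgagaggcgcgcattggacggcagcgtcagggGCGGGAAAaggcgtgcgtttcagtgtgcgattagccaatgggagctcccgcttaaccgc
MCM6 (chr2:135876516-135876625, minus strand): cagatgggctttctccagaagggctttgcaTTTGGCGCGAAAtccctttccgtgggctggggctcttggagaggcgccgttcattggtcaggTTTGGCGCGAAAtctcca
CDT1 (chr16:88803679-88803788, plus strand): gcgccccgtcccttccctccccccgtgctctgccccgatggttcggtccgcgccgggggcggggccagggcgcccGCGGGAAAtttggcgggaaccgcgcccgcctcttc
POLA1 (chrX:24693751-24693860, plus strand): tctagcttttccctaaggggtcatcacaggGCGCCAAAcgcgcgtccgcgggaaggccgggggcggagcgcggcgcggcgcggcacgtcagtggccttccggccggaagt
TK1 (chr17:78187205-78187314, minus strand): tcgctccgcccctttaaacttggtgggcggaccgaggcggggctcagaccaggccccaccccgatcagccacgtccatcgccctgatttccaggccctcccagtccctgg
ORC5 (chr7:104208014-104208123, minus strand): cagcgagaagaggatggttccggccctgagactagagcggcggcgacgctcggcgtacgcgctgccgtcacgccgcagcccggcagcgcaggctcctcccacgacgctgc

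Among the 6 subunits of the origin recognition complex, the response to Vem was uneven. ORC1 (chr1:52838501-52870095, minus strand; all gene positions here are on GRCh37), the largest subunit and an ATPase, had 48.1 and 61.3 CPM with vehicle, 16.3 and 13.99 with Vem, 64.6 and 63.98 with RSV, 37.5 and 41.2 with RSV+Vem, 48.3 and 51.3 with TCDD and 64.01 and 53.6 with RSV+TCDD. It fell the most of the 6, with a log2 fold change of -1.85 ± 0.14, edgeR adjusted p = 4.25e-09, and both Vem libraries lay below every other library. ORC6 (chr16:46723555-46732306, plus strand), the smallest subunit, had 46.1 and 49.7 CPM with vehicle, 14.5 and 14.99 with Vem, 55.8 and 59.99 with RSV, 42.1 and 39.5 with RSV+Vem, 46.4 and 49.6 with TCDD and 55.3 and 57.6 with RSV+TCDD, and it also fell with Vem (-1.70 ± 0.11, edgeR adjusted p = 8.47e-10). The middle subunits moved less. ORC2 stood at 38.2 and 38.2 CPM with vehicle, 22.5 and 22.4 with Vem, 29.9 and 35.7 with RSV, 22.7 and 28.9 with RSV+Vem, 38.3 and 37.3 with TCDD and 29.95 and 31.8 with RSV+TCDD, with a log2 fold change of -0.76 ± 0.13, edgeR adjusted p = 7.17e-05 with Vem. ORC3, which had 77.7 and 76.2 CPM with vehicle, 46.8 and 54.9 with Vem, 96.5 and 109 with RSV, 98.1 and 102 with RSV+Vem, 78.4 and 70.6 with TCDD and 91.7 and 103 with RSV+TCDD, fell with Vem (-0.60 ± 0.11, edgeR adjusted p = 0.000158) and rose with RSV (0.42 ± 0.11, edgeR adjusted p = 0.00409). For ORC4 the values were 83.9 and 76.7 CPM with vehicle, 57.7 and 62.7 with Vem, 73.6 and 80.01 with RSV, 76.3 and 81.4 with RSV+Vem, 90.7 and 71.97 with TCDD and 67.2 and 97.1 with RSV+TCDD. It had the smallest called fall of all 50 genes with Vem, -0.42 ± 0.15, edgeR adjusted p = 0.0265, and its RSV+TCDD libraries spanned the range of the vehicle libraries. ORC5 (chr7:103766788-103848495, minus strand) had 35.1 and 33.1 CPM with vehicle, 38.04 and 38.8 with Vem, 26.5 and 29.5 with RSV, 38.4 and 39.9 with RSV+Vem, 31.6 and 27.1 with TCDD and 26.1 and 33.5 with RSV+TCDD. Both Vem libraries of ORC5 lay above both vehicle libraries, by less than the test called, and both RSV+Vem libraries lay above both RSV libraries (0.48 ± 0.13, edgeR adjusted p = 0.0121).

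The loading factors CDC6 and CDT1 fell with Vem and rose with RSV. CDC6 (chr17:38444131-38460909, plus strand), the ATPase that brings the MCM ring to the origin, had 96.3 and 124 CPM with vehicle, 32.7 and 36.96 with Vem, 169 and 179 with RSV, 97.2 and 94.2 with RSV+Vem, 100.4 and 105 with TCDD and 141 and 156 with RSV+TCDD. CDT1 (chr16:88870197-88875666, plus strand), which escorts the ring, had 56.9 and 67.5 CPM with vehicle, 21.8 and 23.1 with Vem, 119 and 93.1 with RSV, 90.9 and 87.04 with RSV+Vem, 63.5 and 75.4 with TCDD and 137 and 132 with RSV+TCDD. The log2 fold change with Vem was -1.67 ± 0.12, edgeR adjusted p = 2.06e-09 for CDC6 and -1.48 ± 0.13, edgeR adjusted p = 4.29e-08 for CDT1, and with RSV it was 0.66 ± 0.11, edgeR adjusted p = 0.000157 and 0.77 ± 0.12, edgeR adjusted p = 9.15e-05, respectively. In RSV+Vem both CDT1 libraries stood above both vehicle libraries (0.52 ± 0.12, edgeR adjusted p = 0.0021), whereas CDC6 had -0.21 ± 0.11, edgeR adjusted p = 0.14 there and was not called. GMNN, geminin, the inhibitor that blocks CDT1 outside G1, had 56.8 and 72.7 CPM with vehicle, 26.1 and 31.4 with Vem, 63.5 and 70.5 with RSV, 54.4 and 51.8 with RSV+Vem, 66.5 and 65.1 with TCDD and 60.1 and 64.03 with RSV+TCDD. It fell with Vem (-1.17 ± 0.13, edgeR adjusted p = 4.4e-07) and did not pass the test with RSV, at 0.05. The difference between CDT1 and GMNN was not tested.

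The 6 subunits of the MCM2-7 helicase ring all fell with Vem, by log2 fold changes between -1.74 and -1.24. Per kb of canonical transcript, their vehicle levels ranged from 40.9 ± 6.91 CPM per kb (SD, n = 2) for MCM6 to 144 ± 21.9 for MCM7. MCM2 had 190.1 and 210.4 CPM with vehicle, 82.4 and 87.4 with Vem, 224 and 206 with RSV, 154 and 158 with RSV+Vem, 198 and 208 with TCDD and 229 and 226 with RSV+TCDD. MCM3 had 321 and 379 CPM with vehicle, 129 and 134 with Vem, 354 and 347 with RSV, 214 and 211 with RSV+Vem, 365 and 390.2 with TCDD and 387 and 379 with RSV+TCDD. For MCM4 the libraries gave 328 and 399.6 CPM with vehicle, 146 and 158 with Vem, 356 and 379 with RSV, 230.2 and 244 with RSV+Vem, 317 and 358 with TCDD and 358 and 365 with RSV+TCDD. These 3 subunits shared a pattern, near the vehicle level with RSV and between Vem and vehicle with RSV+Vem. MCM5 was counted at 163 and 223 CPM with vehicle, 75.1 and 87.5 with Vem, 143 and 129.9 with RSV, 95.1 and 97.6 with RSV+Vem, 156 and 194 with TCDD and 145 and 141 with RSV+TCDD. MCM6 (chr2:136597196-136634013, minus strand) stood at 135 and 172 CPM with vehicle, 61.1 and 62.7 with Vem, 116 and 119 with RSV, 79.2 and 84.00 with RSV+Vem, 139 and 149 with TCDD and 109 and 108 with RSV+TCDD. MCM7 (chr7:99689856-99699563, minus strand), whose introns host the microRNAs MIR106B, MIR93 and MIR25, gave 318 and 394 CPM with vehicle, 98.7 and 114 with Vem, 298 and 274 with RSV, 160.4 and 164 with RSV+Vem, 373 and 406 with TCDD and 309 and 308 with RSV+TCDD. The latter 3 subunits also fell with RSV alone, with log2 fold changes of -0.50 ± 0.13, edgeR adjusted p = 0.00654 for MCM5, -0.39 ± 0.10, edgeR adjusted p = 0.00637 for MCM6 and -0.32 ± 0.10, edgeR adjusted p = 0.0187 for MCM7. None of these 3 calls was made without vehicle replicate 2, where the values were -0.25, -0.20 and -0.15, and those of MCM5 and MCM7 were also lost without RSV replicate 2 (-0.44 and -0.26). The difference from MCM2, MCM3 and MCM4 was not tested. With Vem the log2 fold change of MCM7 was -1.74 ± 0.11, edgeR adjusted p = 3.12e-10, the lowest of the ring. MCM10 (chr10:13203558-13253110, plus strand), which is not part of the ring but is needed to start unwinding, had 44.3 and 59.8 CPM with vehicle, 11.1 and 13.4 with Vem, 54.02 and 60.1 with RSV, 31.02 and 35.5 with RSV+Vem, 37.8 and 40.2 with TCDD and 45.7 and 45.7 with RSV+TCDD. Its log2 fold change was -2.10 ± 0.15, edgeR adjusted p = 2.27e-09 with Vem, and both Vem libraries were the lowest of the 12.

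The helicase activators had the lowest median of the roles with Vem, -1.78, and all 7 fell. CDC45 (chr22:19466980-19508135, plus strand), which joins the ring to make the active helicase, had 71.9 and 81.9 CPM with vehicle, 17.9 and 18.98 with Vem, 76.8 and 73.8 with RSV, 42.3 and 39.8 with RSV+Vem, 71.1 and 76.2 with TCDD and 73.4 and 75.8 with RSV+TCDD, and its log2 fold change with Vem was -2.06 ± 0.11, edgeR adjusted p = 6.95e-11. The 4 GINS subunits form a tight complex, and their vehicle levels per kb of transcript ranged from 9.58 ± 2.13 CPM per kb (SD, n = 2) for GINS3 to 29.3 ± 4.64 for GINS1. GINS1 had 86.1 and 108 CPM with vehicle, 27.7 and 28.9 with Vem, 69.3 and 81.9 with RSV, 46.3 and 50.9 with RSV+Vem, 79.7 and 78.8 with TCDD and 61.8 and 72.9 with RSV+TCDD. GINS2 had 35.4 and 48.9 CPM with vehicle, 11.6 and 11.7 with Vem, 30.8 and 33.6 with RSV, 21.02 and 21.8 with RSV+Vem, 43.4 and 50.9 with TCDD and 32.99 and 32.6 with RSV+TCDD. Both fell with Vem, with log2 fold changes of -1.78 and -1.86, and both fell with RSV alone, with -0.36 and -0.39. Without vehicle replicate 2 the RSV values of GINS1 and GINS2 were -0.18 and -0.13, and without RSV replicate 1 -0.24 and -0.33, neither called. GINS3 (chr16:58328984-58440051, plus strand) had 17.8 and 24.4 CPM with vehicle, 8.83 and 11.4 with Vem, 32.1 and 28.9 with RSV, 21.7 and 19.7 with RSV+Vem, 16.6 and 20.00 with TCDD and 30.1 and 26.8 with RSV+TCDD. GINS4 had 41.3 and 45.7 CPM with vehicle, 13.7 and 17.4 with Vem, 50.2 and 51.9 with RSV, 35.3 and 41.4 with RSV+Vem, 40.8 and 40.6 with TCDD and 49.5 and 44.3 with RSV+TCDD. GINS3 fell with Vem (-1.07 ± 0.17, edgeR adjusted p = 4.31e-05) and rose with RSV (0.53 ± 0.15, edgeR adjusted p = 0.0113), a call lost without vehicle replicate 1 (0.32) or without RSV replicate 1 (0.45). GINS4 had 0.23 ± 0.12 with RSV and was not called.

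CDC7 and DBF4 are the catalytic and the regulatory subunit of the kinase that fires licensed origins. CDC7 had 80.2 and 81.2 CPM with vehicle, 28.7 and 26.7 with Vem, 83.01 and 106 with RSV, 55.1 and 64.1 with RSV+Vem, 70.4 and 72.3 with TCDD and 57.2 and 71.05 with RSV+TCDD. DBF4 (chr7:87505531-87538868, plus strand) had 48.8 and 56.6 CPM with vehicle, 11.1 and 13.3 with Vem, 32.1 and 38.1 with RSV, 30.3 and 32.4 with RSV+Vem, 45.9 and 45.7 with TCDD and 25.6 and 33.3 with RSV+TCDD. Both fell with Vem, DBF4 with -2.11 ± 0.15, edgeR adjusted p = 2.06e-09 and CDC7 with -1.54 ± 0.13, edgeR adjusted p = 2.55e-08. DBF4 also fell with RSV (-0.58 ± 0.14, edgeR adjusted p = 0.0022), where CDC7 had 0.23 ± 0.12. The DBF4 libraries of RSV+Vem overlapped those of RSV (-0.17 ± 0.14, edgeR adjusted p = 0.407), the smallest step with Vem under RSV of the 7 helicase activators. A pseudogene, DBF4P1, carries a similar sequence, and it had at most 16 counts in any library.

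DNA polymerase α and primase form 1 complex of 4 subunits, which moved together with Vem and apart with RSV. PRIM1 (chr12:57124222-57146158, minus strand), the catalytic primase subunit, had 82.8 and 93.1 CPM with vehicle, 25.9 and 28.05 with Vem, 89.8 and 104 with RSV, 55.5 and 65.00 with RSV+Vem, 85.8 and 87.3 with TCDD and 80.2 and 101 with RSV+TCDD. PRIM2 (chr6:57179603-57513376, plus strand), the regulatory primase subunit, had 61.1 and 61.9 CPM with vehicle, 29.5 and 32.7 with Vem, 44.1 and 40.3 with RSV, 37.99 and 36.2 with RSV+Vem, 62.01 and 64.7 with TCDD and 54.8 and 55.1 with RSV+TCDD. PRIM2 overlaps PRIM2BP on the same strand, so its counts are uncertain, and PRIM1 overlaps NACA on its strand. POLA1 (chrX:24711990-25015103, plus strand), the catalytic polymerase subunit, had 127 and 137 CPM with vehicle, 46.7 and 56.7 with Vem, 66.7 and 71.8 with RSV, 53.1 and 52.1 with RSV+Vem, 124 and 138 with TCDD and 91.9 and 86.1 with RSV+TCDD. POLA2 (chr11:65029384-65073430, plus strand), its regulatory subunit, had 48.6 and 56.6 CPM with vehicle, 25.2 and 26.4 with Vem, 83.7 and 85.2 with RSV, 60.8 and 60.6 with RSV+Vem, 44.05 and 46.5 with TCDD and 70.04 and 71.7 with RSV+TCDD. With Vem the 4 log2 fold changes were -1.71 for PRIM1, -0.98 for PRIM2, -1.35 for POLA1 and -1.03 for POLA2, all called. With RSV, POLA1 fell by the most of all 50 genes (-0.93 ± 0.10, edgeR adjusted p = 2.83e-06) and PRIM2 also fell (-0.54 ± 0.10, edgeR adjusted p = 0.000373), POLA2 rose (0.68 ± 0.10, edgeR adjusted p = 4.49e-05), and PRIM1, at 0.14, was not called. Both POLA1 libraries of RSV lay below both vehicle libraries, and both POLA2 libraries of RSV lay above them. From Vem to RSV+Vem, POLA1 and PRIM2 were not called, with log2 fold changes of 0.03 ± 0.11 and 0.26 ± 0.11, while POLA2 rose (1.24 ± 0.11, edgeR adjusted p = 1.13e-07).

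POLE (chr12:133200339-133263962, minus strand), the catalytic subunit of the leading strand polymerase ε, showed the largest response of the set. It had 169 and 203 CPM with vehicle, 23.2 and 21.7 with Vem, 216 and 234 with RSV, 52.9 and 59.5 with RSV+Vem, 147 and 158 with TCDD and 182 and 160.0 with RSV+TCDD. Its log2 fold change with Vem was -3.05 ± 0.12, edgeR adjusted p = 1.69e-12, and the fall remained the largest of the 50 with RSV present, at -2.01 ± 0.11, edgeR adjusted p = 7.01e-10. With RSV alone POLE rose (0.28 ± 0.10, edgeR adjusted p = 0.0434). That call was lost when vehicle replicate 1, RSV replicate 1 or RSV replicate 2 was left out, with values of 0.15, 0.33 and 0.22. POLE2, the second subunit of polymerase ε, had 15.3 and 21.8 CPM with vehicle, 4.24 and 5.53 with Vem, 10.5 and 13.6 with RSV, 6.86 and 6.75 with RSV+Vem, 16.7 and 13.9 with TCDD and 10.1 and 11.2 with RSV+TCDD. It fell with Vem (-1.93 ± 0.21, edgeR adjusted p = 3.41e-07) and with RSV (-0.62 ± 0.18, edgeR adjusted p = 0.00989), where the call was lost without vehicle replicate 2 (-0.33) or RSV replicate 1 (-0.45).

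The lagging strand polymerase δ moved less. POLD1, its catalytic subunit, had 69.2 and 83.9 CPM with vehicle, 33.9 and 39.3 with Vem, 78.9 and 62.4 with RSV, 55.8 and 51.2 with RSV+Vem, 77.5 and 89.3 with TCDD and 80.5 and 81.4 with RSV+TCDD. POLD2, which anchors the accessory subunits, had 142 and 158 CPM with vehicle, 89.3 and 92.3 with Vem, 98.3 and 89.1 with RSV, 83.8 and 79.96 with RSV+Vem, 149.6 and 173 with TCDD and 102 and 108 with RSV+TCDD. POLD3, which contacts PCNA, had 34.7 and 37.7 CPM with vehicle, 14.95 and 14.4 with Vem, 43.2 and 46.3 with RSV, 30.4 and 27.6 with RSV+Vem, 33.3 and 35.2 with TCDD and 42.1 and 41.5 with RSV+TCDD. With Vem the log2 fold changes were -1.07, -0.72 and -1.30, all called. The response of its subunits to RSV was also uneven. POLD2 fell (-0.68 ± 0.10, edgeR adjusted p = 4.02e-05), POLD3 rose (0.31 ± 0.11, edgeR adjusted p = 0.0292), and POLD1 had -0.12 ± 0.13 and was not called. POLD2 was also the only member of the set whose log2 fold change in RSV+Vem against Vem was below 0, at -0.15 ± 0.10, not called.

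**Figure D3:**
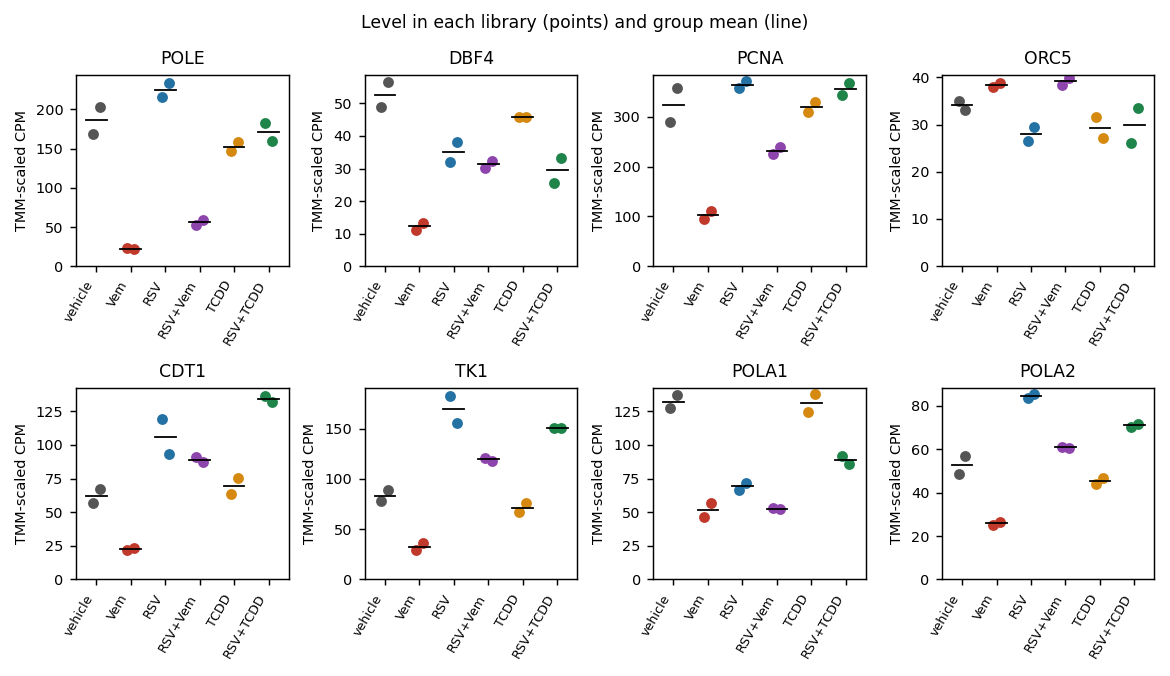
TMM-scaled CPM of 8 of the genes (1 panel each, vertical axis from 0) in the 6 groups; points are the 2 libraries of a group and the line is their mean. POLE, DBF4, PCNA, CDT1, TK1 and POLA2 are lowest with Vem, and ORC5 is not lowered by Vem. POLA1 is below vehicle in the Vem, RSV and RSV+Vem libraries, and its RSV libraries lie above those of Vem and RSV+Vem.

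PCNA (chr20:5095599-5107272, minus strand), the sliding clamp, had the highest level per kb of transcript of the set with vehicle, 253 ± 37.5 CPM per kb (SD, n = 2), and 80.8 ± 9.42 with Vem. Its libraries gave 289 and 357 CPM with vehicle, 94.6 and 112 with Vem, 358 and 371 with RSV, 225 and 239.8 with RSV+Vem, 309.9 and 329 with TCDD and 344 and 367 with RSV+TCDD, and it fell with Vem (-1.65 ± 0.11, edgeR adjusted p = 5.79e-10). The clamp loader RFC has 1 large and 4 small subunits. RFC1, the large one, had 153 and 148 CPM with vehicle, 76.01 and 95.1 with Vem, 128 and 143 with RSV, 113 and 115 with RSV+Vem, 151 and 147 with TCDD and 134 and 139 with RSV+TCDD. RFC2 had 85.8 and 99.00 CPM with vehicle, 42.2 and 43.1 with Vem, 96.6 and 94.3 with RSV, 75.1 and 72.8 with RSV+Vem, 85.7 and 86.5 with TCDD and 88.8 and 85.2 with RSV+TCDD. RFC3 (chr13:34392206-34540695, plus strand) had 116 and 122 CPM with vehicle, 29.6 and 29.4 with Vem, 97.4 and 112 with RSV, 73.3 and 93.2 with RSV+Vem, 94.7 and 88.3 with TCDD and 82.5 and 107 with RSV+TCDD. RFC3 fell most of the 5 with Vem (-2.01 ± 0.14, edgeR adjusted p = 1.35e-09) and RFC1 least (-0.82 ± 0.10, edgeR adjusted p = 2.94e-06). RFC4 had 135 and 134 CPM with vehicle, 52.4 and 47.6 with Vem, 131 and 136 with RSV, 90.9 and 86.8 with RSV+Vem, 135 and 140.4 with TCDD and 126 and 133 with RSV+TCDD. RFC5 had 60.6 and 69.2 CPM with vehicle, 25.4 and 27.4 with Vem, 79.6 and 87.99 with RSV, 60.5 and 64.3 with RSV+Vem, 61.96 and 63.9 with TCDD and 78.2 and 76.04 with RSV+TCDD. The 4 small subunits stood between Vem and vehicle, or at vehicle, with RSV+Vem, and RFC5 was the one of them called with RSV (0.37 ± 0.10, edgeR adjusted p = 0.00766).

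FEN1 cuts the flaps of Okazaki fragments and LIG1 seals them. FEN1 had 244 and 327 CPM with vehicle, 119 and 129 with Vem, 310.0 and 305 with RSV, 195 and 210.4 with RSV+Vem, 260.1 and 293 with TCDD and 311 and 330.4 with RSV+TCDD. LIG1 (chr19:48618702-48673860, minus strand) had 91.7 and 103 CPM with vehicle, 27.7 and 32.05 with Vem, 88.4 and 81.00 with RSV, 52.4 and 54.7 with RSV+Vem, 89.5 and 101 with TCDD and 91.9 and 95.4 with RSV+TCDD. Both fell with Vem, LIG1 with -1.70 ± 0.11, edgeR adjusted p = 7.07e-10 and FEN1 with -1.20 ± 0.11, edgeR adjusted p = 9.3e-08, and FEN1 overlaps FADS2 on its strand. RPA coats single strands with a complex of 3 subunits. RPA1 had 236 and 256 CPM with vehicle, 133 and 143 with Vem, 247 and 259 with RSV, 178 and 192 with RSV+Vem, 239 and 239 with TCDD and 243 and 247 with RSV+TCDD. RPA2 (chr1:28218035-28241257, minus strand) had 72.2 and 88.4 CPM with vehicle, 55.8 and 56.1 with Vem, 126 and 118 with RSV, 105 and 96.3 with RSV+Vem, 69.8 and 80.4 with TCDD and 112 and 110.3 with RSV+TCDD. RPA3 had 49.2 and 49.5 CPM with vehicle, 22.7 and 20.2 with Vem, 47.4 and 57.5 with RSV, 42.9 and 42.2 with RSV+Vem, 55.8 and 50.3 with TCDD and 41.1 and 58.2 with RSV+TCDD. RPA2 fell least of the 11 genes of this role with Vem (-0.52 ± 0.11, edgeR adjusted p = 0.000614), rose with RSV (0.60 ± 0.11, edgeR adjusted p = 0.00026) and stood above vehicle with RSV+Vem (0.33 ± 0.11, edgeR adjusted p = 0.0179). RPA1 and RPA3 had -0.83 and -1.20 with Vem, both called, and 0.04 and 0.09 with RSV, neither called.

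The nucleotide synthesis genes all fell with Vem. RRM1, the large subunit of ribonucleotide reductase, had 231 and 247 CPM with vehicle, 102 and 109 with Vem, 242 and 265 with RSV, 155 and 168 with RSV+Vem, 228 and 229 with TCDD and 224 and 235 with RSV+TCDD. RRM2 (chr2:10260825-10351851, plus strand), its small subunit and the one that is made in S phase, had 160.4 and 217 CPM with vehicle, 57.4 and 63.6 with Vem, 262 and 295 with RSV, 134 and 160.5 with RSV+Vem, 155 and 155 with TCDD and 193 and 219 with RSV+TCDD. With Vem RRM2 fell by the larger value, with -1.64 ± 0.13, edgeR adjusted p = 3.26e-08 against -1.18 ± 0.09, edgeR adjusted p = 4.4e-09 for RRM1, and rose with RSV (0.56 ± 0.13, edgeR adjusted p = 0.00234), where RRM1 had 0.08. TYMS (chr18:657653-673578, plus strand), which makes thymidylate, had 128 and 139.6 CPM with vehicle, 46.7 and 47.8 with Vem, 144 and 146 with RSV, 99.2 and 105 with RSV+Vem, 126 and 132 with TCDD and 138 and 146 with RSV+TCDD and fell with Vem (-1.50 ± 0.09, edgeR adjusted p = 3.29e-10). TK1 (chr17:76170172-76183314, minus strand), which recovers thymidine, had 77.6 and 89.05 CPM with vehicle, 29.1 and 36.1 with Vem, 183 and 155 with RSV, 121 and 118 with RSV+Vem, 66.7 and 75.9 with TCDD and 151 and 151 with RSV+TCDD. It fell with Vem (-1.36 ± 0.12, edgeR adjusted p = 3.67e-08) and had the largest rise of the set with RSV (1.02 ± 0.11, edgeR adjusted p = 2.43e-06), and in RSV+Vem both libraries stayed above both vehicle libraries (0.52 ± 0.11, edgeR adjusted p = 0.00107).

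Of the chromatin factors, CHAF1A and CHAF1B are subunits of the histone chaperone CAF-1, which places nucleosomes on new DNA, and UHRF1 brings the maintenance DNA methyltransferase to it. CHAF1A had 88.1 and 103 CPM with vehicle, 35.3 and 36.2 with Vem, 106 and 95.5 with RSV, 76.2 and 79.8 with RSV+Vem, 89.04 and 100.5 with TCDD and 114 and 109 with RSV+TCDD. CHAF1B, which overlaps MORC3 on its strand, had 64.02 and 78.04 CPM with vehicle, 31.99 and 32.4 with Vem, 79.7 and 76.7 with RSV, 58.05 and 58.3 with RSV+Vem, 66.1 and 68.8 with TCDD and 72.4 and 71.9 with RSV+TCDD. UHRF1 (chr19:4903092-4962165, plus strand) had 39.2 and 63.1 CPM with vehicle, 12.9 and 15.3 with Vem, 46.8 and 40.6 with RSV, 27.8 and 30.7 with RSV+Vem, 43.9 and 48.7 with TCDD and 40.04 and 39.8 with RSV+TCDD. The log2 fold changes with Vem were -1.86 ± 0.19, edgeR adjusted p = 5.47e-07 for UHRF1, -1.42 for CHAF1A and -1.14 for CHAF1B, and none of the 3 passed the test with RSV. The vehicle libraries of UHRF1 differed from each other more than those of CHAF1A and CHAF1B did.

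Vem was then compared within RSV, between libraries that share none with Vem against vehicle. In RSV+Vem against RSV, 38 of the 50 genes fell and 1, ORC5, rose (below 0 when scaled to the spike-ins), where 13.4% of all tested genes were called lower and 11.3% higher. The median log2 fold change of the 50 was -0.50, against 0.00 over all genes. The sign was the same as without RSV in 49 of the 50 genes (98.0%, against 71.5% of all tested genes), all 38 that fell with RSV present had also fallen without it, and 49 of the 50 had the smaller absolute log2 fold change with RSV, as did 11197 of 16080 genes. Of the 2149 tested genes called lower with RSV present, 1544 were also called lower without it. Across the 50 genes, which share these libraries and are not independent, Pearson's r between the 2 log2 fold changes was 0.79 and Spearman's rho 0.65. Over all tested genes they were 0.62 and 0.59. Besides ORC5, the 11 genes not called in either direction with RSV present were ORC3, ORC4, CDT1, GMNN, DBF4, PRIM2, POLD2, RFC1, RFC3, RPA2 and RPA3, with log2 fold changes from -0.34 to 0.04. Leaving out RSV+Vem replicate 1, which leaves the shallow and spike-rich replicate 2 to stand for the group, gave 25 genes lower and none higher.

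The difference between these effects was tested as the interaction of RSV and Vem. It was above 0 for all 50 genes in value and called for 45, with none called below 0, where 11.8% of all tested genes were called higher and 10.9% lower. The median of the interaction was 0.84, against 0.02 over all genes. DBF4 had the largest, 1.94 ± 0.21, edgeR adjusted p = 4.23e-06, followed by RFC3 (1.67 ± 0.19, edgeR adjusted p = 7.36e-06) and MCM10 (1.31 ± 0.20, edgeR adjusted p = 0.000189). ORC2, ORC4, ORC5, GINS3 and RPA2 did not pass the test, with values from 0.25 for RPA2 to 0.52 for GINS3. By role the median interaction was 1.13 for helicase activation, 1.05 for chromatin assembly, 0.85 for the clamp, loader and lagging strand, 0.80 for the polymerases and primase, 0.79 for nucleotide synthesis and 0.78 for origin recognition and licensing. POLE combined an interaction of 1.04 ± 0.16 with the lowest level of the set relative to vehicle in RSV+Vem (-1.73 ± 0.11, edgeR adjusted p = 2.01e-09). Without Vem replicate 1 the interaction was called for 35 genes, and without any other single library for 42 to 46.

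**Figure D4:**
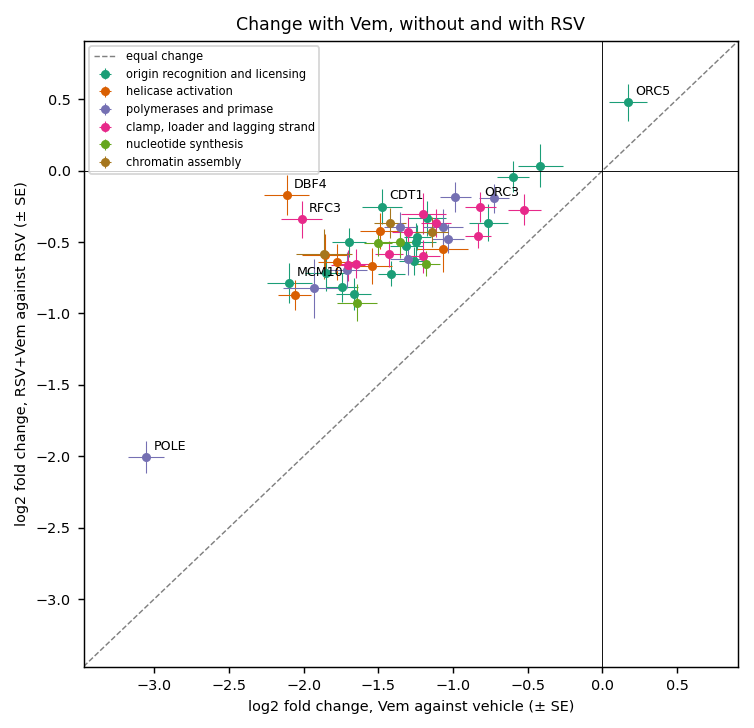
Log2 fold change of each of the 50 genes in Vem against vehicle (horizontal axis) and in RSV+Vem against RSV (vertical axis), with SE bars from the edgeR fit and colour by role; the dashed line marks equal change. Points lie above the line, POLE is far from the rest in both directions of the plot, at -3.05 and -2.01, and ORC5 is at the upper right.

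RSV added to Vem raised most of the set. In RSV+Vem against Vem, 42 of the 50 genes rose and none fell, where 19.1% of all tested genes were called higher and 18.7% lower, and the median was 0.88, against 0.03 over all genes. CDT1 (1.99 ± 0.13, edgeR adjusted p = 7.94e-09) and TK1 (1.88 ± 0.12, edgeR adjusted p = 6.01e-09) rose the most. The 8 not called were ORC2, ORC4, ORC5, MCM5, PRIM2, POLA1, POLD2 and POLE2, with values from -0.15 for POLD2 to 0.48 for POLE2. Set against vehicle, RSV+Vem had 36 of the 50 lower and 4 higher, where 24.7% of all tested genes were called lower and 24.1% higher, with a median of -0.48. The 4 that stood above vehicle were ORC3 (0.38), CDT1 (0.52), RPA2 (0.33) and TK1 (0.52), all of them also called higher with RSV alone. Scaled to the spike-ins, all 4 were below 0 in that comparison. The RSV+Vem libraries had the lowest RIN values of the study, 8.7 and 8.6, and the part of RNA quality in these results was not tested.

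With RSV alone, replication genes were called in both directions at about the rate of all tested genes. In RSV against vehicle 12 of the 50 genes rose and 10 fell, where 20.5% of all tested genes were called higher and 20.2% lower, so that both counts were near the share of all genes. The median was 0.06, against 0.00 over all genes. It was -0.11 when counts were scaled to the spike-ins, and 0 of the 50 were then called by edgeR, with 3 at an unadjusted p below 0.05. The genes that rose were TK1, CDT1, POLA2, CDC6, RPA2, RRM2, GINS3, ORC3, RFC5, POLD3, POLE and ORC6, with log2 fold changes from 1.02 down to 0.27. Those that fell were POLA1, POLD2, POLE2, DBF4, PRIM2, MCM5, MCM6, GINS2, GINS1 and MCM7, from -0.93 up to -0.32. The split rested in part on which vehicle library served as reference. Without vehicle replicate 1 there were 7 genes higher and 11 lower, and without vehicle replicate 2, whose counts of these genes were the higher ones, 17 higher and 4 lower. The 4 were POLA1, POLD2, DBF4 and PRIM2.

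The RSV pattern recurred in libraries that share none with RSV against vehicle. If the 1 nM TCDD of the RSV+TCDD label is right, RSV+TCDD and TCDD also differ in TCDD dose, which cannot be told apart from RSV. In RSV+TCDD against TCDD, 10 of the 50 genes rose and 7 fell, where 18.6% of all tested genes were called higher and 19.1% lower, and the median was 0.03, against -0.01 over all genes, and below 0 when scaled to the spike-ins. All 10 were among the 12 that rose with RSV alone and all 7 among the 10 that fell, none was called in opposite directions, and the sign was the same in 43 of the 50 (86.0%, close to the 82.6% of all tested genes). Over all tested genes, 2279 of the 2989 called higher and 2295 of the 3068 called lower had the same call with RSV alone. Opposite calls were made for 16 of the 16080, so the recurrence was not particular to the 50. The rises were led by TK1 (1.08 ± 0.11, edgeR adjusted p = 1.6e-06) and CDT1 (0.95 ± 0.12, edgeR adjusted p = 1.32e-05), and the falls by DBF4 (-0.64 ± 0.14, edgeR adjusted p = 0.0014), POLD2 (-0.62 ± 0.10, edgeR adjusted p = 0.000102) and POLA1 (-0.56 ± 0.10, edgeR adjusted p = 0.000439). Across the 50 genes Pearson's r was 0.94 and Spearman's rho 0.91, a description of points that share libraries. Over all tested genes both were 0.79. Without TCDD replicate 2 the count fell from 17 to 10, and without RSV+TCDD replicate 2 to 11. In RSV+Vem against Vem, 31 of the 50 signs (62.0%, against 64.2% of all tested genes) were those of RSV alone, all 12 genes that rose with RSV alone rose again, and 5 genes that fell with RSV alone, MCM6, MCM7, GINS1, GINS2 and DBF4, rose. Among all tested genes, 1380 of the 3295 called higher with RSV alone were called higher again, and 452 were called in opposite directions.

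**Figure D5:**
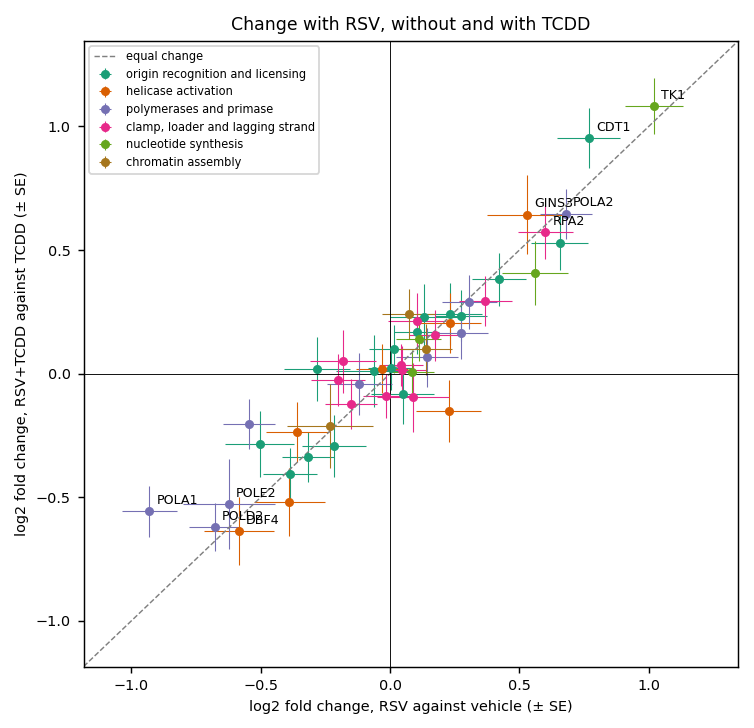
Log2 fold change of each of the 50 genes in RSV against vehicle (horizontal axis) and in RSV+TCDD against TCDD (vertical axis), with SE bars from the edgeR fit and colour by role; the dashed line marks equal change. TK1 and CDT1 are at the upper right, and POLA1, POLD2, POLE2 and DBF4 at the lower left.

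No member passed the test with TCDD alone. In TCDD against vehicle 0 of the 50 genes were called by edgeR or by DESeq2, 6 had an unadjusted edgeR p below 0.05, and the median was -0.06, against 0.00 over all genes, of which 4.72% were called higher and 2.01% lower. The lowest value was that of MCM10, -0.42 ± 0.13, edgeR adjusted p = 0.0691, and the highest that of GINS2, 0.16 ± 0.13, edgeR adjusted p = 0.547. In RSV+TCDD against RSV, PRIM2 (0.38 ± 0.10, edgeR adjusted p = 0.0328) and POLA1 (0.36 ± 0.10, edgeR adjusted p = 0.0482) rose and CDC7 (-0.56 ± 0.13, edgeR adjusted p = 0.0127) and POLE (-0.40 ± 0.11, edgeR adjusted p = 0.0326) fell, where 3.89% of all tested genes were called higher and 2.28% lower. None of these 4 calls was made without RSV replicate 2. PRIM2 and POLA1 were below 0 when scaled to the spike-ins. The interaction of RSV and TCDD was called for none of the 50 by edgeR or by DESeq2, with 3 at an unadjusted p below 0.05 and a median of 0.00 (-0.51 when scaled to the spike-ins), where 0.0124% of all tested genes were called higher and 0.137% lower. If the label of 1 nM TCDD is right, this interaction also holds a difference in TCDD dose, which cannot be told apart from RSV. Set directly against TCDD, Vem had 49 of the 50 genes lower and ORC5 higher (0.38 ± 0.13, edgeR adjusted p = 0.0199), where 26.4% of all tested genes were called lower and 24.1% higher, with a median of -1.32.

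Other genes of the same pathways, outside the 50, were counted in 4 further lists. Of 24 E2F and RB regulators, 21 fell and none rose with Vem, with a median of -0.91, where 26.9% of all tested genes were called lower and 25.5% higher. E2F8, a repressor of E2F targets, was lowest at -1.82. With RSV 6 of them rose and 7 fell, near the shares of all tested genes, 20.5% higher and 20.2% lower. Their values ran from -0.67 for SKP2, which targets cell cycle inhibitors for destruction, to 1.03 for LIN37, a subunit of the DREAM complex. LIN37 was at a low level, with 1.92 and 2.02 CPM with vehicle and 4.34 and 3.78 with RSV. Of 29 other replication fork genes, 25 fell and 2 rose with Vem (median -1.25), from -2.56 for ATAD5, which unloads PCNA, to 1.39 for POLD4, the small subunit of polymerase δ, which rose while POLD1, POLD2 and POLD3 fell. POLD4 was at a low level, with 4.30 and 4.41 CPM with vehicle and 11.1 and 11.8 with Vem. With RSV 8 of the 29 rose and 4 fell, beside the same 20.5% and 20.2% of all genes. In RSV+Vem against Vem, 25 of the 29 rose and 1, POLD4, fell (-0.80), where 19.1% of all tested genes were called higher and 18.7% lower. A further contrast, RSV+Vem against RSV, had 22 lower and none higher, where 13.4% of all tested genes were called lower.

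The nucleotide synthesis genes beyond the 4 members moved less uniformly. Of 31, 25 fell and 1 rose with Vem (median -0.54), against 26.9% of all tested genes lower and 25.5% higher, the highest being TK2, the mitochondrial thymidine kinase, at 0.78. With RSV 2 rose and 14 fell (median -0.22), against 20.5% of all tested genes higher and 20.2% lower, the lowest being DHODH, of pyrimidine synthesis, at -1.12, whereas TK1 and RRM2 rose. In RSV+Vem against Vem 9 of the 31 rose and 11 fell, with a median of 0.02, where 19.1% of all tested genes were called higher and 18.7% lower. The interaction of RSV and Vem was called higher for 11 and lower for none, where 11.8% of all tested genes were called higher and 10.9% lower.

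The 7 proliferation markers, among them genes of mitosis, had lower medians than the replication genes with RSV. All 7 fell with Vem (median -1.57), from -2.11 for BUB1 to -1.03 for AURKA, both mitotic kinases. Of all tested genes, 26.9% were called lower with Vem and 25.5% higher. With RSV alone 5 fell and none rose (median -0.89), with PLK1, a mitotic kinase, at -1.72. The shares of all tested genes there were 20.2% lower and 20.5% higher. In RSV+TCDD against TCDD 6 fell (median -0.94), where 19.1% of all tested genes were called lower. In RSV+Vem against RSV 1 of the 7, MKI67, was called lower (-0.70), near the share of all tested genes, 13.4%. The interaction of RSV and Vem was called higher for all 7, where 11.8% of all tested genes were called higher. The melanocyte markers moved the other way with Vem, 6 of 7 higher and none lower (median 0.38, DCT highest at 1.51). With RSV all 7 of them fell (median -0.61), beside the same shares of all tested genes as above. KRT10 had 0.30 with Vem, not called, and -0.37 with RSV, called lower. The part of these markers in the results on the replication genes was not tested.

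Scaling to the ERCC spike-ins instead of TMM shifted the median of all genes, and with it the replication genes. The all-gene median became -0.68 with Vem, -0.51 with TCDD, -0.17 with RSV, -0.52 in RSV+Vem against RSV, -0.02 in RSV+Vem against Vem, -0.70 in RSV+Vem against vehicle, -1.02 in RSV+TCDD against RSV, -0.70 in RSV+TCDD against TCDD and -0.17 in Vem against TCDD, and the changes above are relative to the TMM reference. The median of the 50 was then -2.01 with Vem, -1.03 in RSV+Vem against RSV, 0.85 in RSV+Vem against Vem and 0.98 for the interaction, the same directions as with TMM. It turned negative with RSV, at -0.11, in RSV+TCDD against TCDD, at -0.66, and for the interaction of RSV and TCDD, at -0.51. The all-gene median of that interaction was -0.52, and that of the interaction of RSV and Vem 0.15. The common biological coefficient of variation was 0.0915 with TMM and 0.290 with the spike-ins. With the latter, 48 of the 50 genes were called with Vem, 4 in RSV+Vem against RSV, all lower, 4 in RSV+Vem against Vem, all higher, and 36 in RSV+TCDD against RSV, all lower. In that last comparison the median of the 50 was -1.11, close to the -1.02 of all genes. The share of all tested genes called with spike-in scaling was not counted. By the same scaling 0 of the 50 were called for RSV against vehicle and 0 for the interaction of RSV and Vem, where 3 and 10 had an unadjusted edgeR p below 0.05.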

How the data were processed

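The authors sequenced stranded mRNA libraries of 501Mel cells as read pairs of 75 bp, aligned them with STAR 2.4.0a to hg19 (GRCh37) and assigned the pairs to gene symbols with featureCounts of Subread 1.5.0-p3. The deposited values are raw counts without normalization, and the annotation release is not given in the sources used here. A symbol used by several genes has 1 value, and PCR copies were not removed.

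Control sequences (96, of them 92 ERCC spike-ins) were left out of the tests. filterByExpr by group (minimum count 10, minimum total 15) left 16080 genes. A quasi-likelihood model with TMM factors (0.890 to 1.08) and 1 term per group was fitted to all 12 libraries (edgeR 4.0.16, limma 3.58.1, R 4.3.3). Genes were called at a Benjamini-Hochberg adjusted p below 0.05 over all tested genes, and SEs were derived from the F statistic. Since 2 libraries against 2 cannot reach this threshold by exact permutation, each p-value depends on the model. The steps were tested on simulated data.

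All 50 genes are named by role. Values in every library were to be printed for the 2 lowest and the highest gene of each role in Vem against vehicle and in RSV against vehicle and for each gene called in an interaction, and are given for all 50. Other lists are given by counts with named extremes, of which 1 is not reported here. The members and lists were chosen with earlier results of these data known.

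Alternatives were DESeq2 1.42.0, RLE factors, spike-in scaling, no filter, a minimum of 10 counts in each library, a replicate block, a fit of the compared libraries alone, and leaving out each library. Replicate numbers were not used as pairs, because replicate differences correlated above 0.1 in 3 and below -0.1 in 1 of 15 pairs of groups. Replicates differed beyond counting noise (chi-square per degree of freedom 4.47 to 21.3). Gene positions and canonical transcript lengths are from GENCODE on GRCh37, promoter windows from RefSeq on GRCh38.p14. Plots were made with matplotlib 3.10.9 (Python 3.11.15). Read-level data were not used here.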

Additional observations from a re-analysis of the deposited data

Results flagged for a closer look

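For 45 of the 50 genes the effect of Vem differed with and without RSV by a test of the difference itself, the interaction of RSV and Vem in the quasi-likelihood fit of edgeR (Benjamini-Hochberg adjusted over all tested genes). Values are log2, positive where the fall with Vem was smaller with RSV. In origin recognition and licensing ORC1 had 1.14, ORC3 0.56, ORC6 1.20, CDC6 0.80, CDT1 1.22, GMNN 0.84, MCM2 0.77, MCM3 0.69, MCM4 0.63, MCM5 0.75, MCM6 0.78, MCM7 0.93 and MCM10 1.31. Among the helicase activators CDC45 had 1.19, GINS1 1.13, GINS2 1.27, GINS4 1.07, CDC7 0.87 and DBF4 1.94. For the polymerases and primase PRIM1 had 1.01, PRIM2 0.80, POLA1 0.96, POLA2 0.56, POLD1 0.67, POLD2 0.53, POLD3 0.68, POLE 1.04 and POLE2 1.11. At the clamp, its loader and the lagging strand RFC1 had 0.56, RFC2 0.75, RFC3 1.67, RFC4 0.85, RFC5 0.87, PCNA 1.00, FEN1 0.60, LIG1 1.04, RPA1 0.38 and RPA3 0.90. Of the nucleotide synthesis genes RRM1 had 0.53, RRM2 0.72, TYMS 1.00 and TK1 0.86. The chromatin factors followed, as CHAF1A had 1.05, CHAF1B 0.72 and UHRF1 1.28. The part of RNA quality, depth and spike-in content of the RSV+Vem libraries in these values was not tested, and with spike-in scaling none of the 45 passed the threshold, although the median of the 50 was 0.98.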

How the results depend on the processing

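With 2 libraries per group, depth of 8378655 to 25076925 gene counts and a common coefficient of variation of 0.0915, small log2 changes were at the edge of what could be called, and the counts of calls moved with the libraries kept. DESeq2, RLE factors and the filters kept the number of calls within 1.5 times in every comparison except TCDD against vehicle, where testing without a filter called 4 genes lower (RRM2, MCM10, POLE and RFC3) in place of 0. Using only the libraries compared called 1 there (RFC3) and 2 in RSV+TCDD against RSV (CDC7 and RRM2) in place of 4.

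Spike-in scaling changed most. It called 0 genes in RSV against vehicle and 0 for the interaction of RSV and Vem, 4 in RSV+Vem against RSV, 4 in RSV+Vem against Vem, 36 lower in RSV+TCDD against RSV and 3 in RSV+TCDD against TCDD. Signs were compared only for genes called with TMM in the same comparison. Of these, the ones that reversed under spike-in scaling, none of them called there, were as follows. In RSV+Vem against RSV it was ORC5 -0.0449, and in RSV+TCDD against RSV PRIM2 -0.65 and POLA1 -0.65. In RSV+TCDD against TCDD they were ORC3 -0.32, CDC6 -0.17, GINS3 -0.0238, POLA2 -0.0389, POLD3 -0.39, RFC5 -0.38, RPA2 -0.11 and RRM2 -0.29. In RSV+Vem against vehicle they were ORC3 -0.32, CDT1 -0.16, RPA2 -0.34 and TK1 -0.17. Signs of genes not called with TMM were not listed. The wider spread and the shifted all-gene median accompany these losses, and their cause was not tested.

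The replicate block, run although the numbers did not pair the libraries (correlations of replicate differences from -0.12 to 0.15, the 3 above 0.1 being those among RSV, RSV+Vem and RSV+TCDD), gave 49 calls in Vem against vehicle, 22 in RSV against vehicle, 45 for the interaction of RSV and Vem, 1 in TCDD against vehicle (MCM10) in place of 0, and 5 in RSV+TCDD against RSV (RRM2 added) in place of 4.

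Leaving out each library in turn gave 48 to 49 calls in Vem against vehicle, 48 to 49 in Vem against TCDD, 16 to 21 in RSV against vehicle, 25 to 35 in RSV+Vem against RSV, 39 to 42 in RSV+Vem against Vem, 32 to 41 in RSV+Vem against vehicle, 10 to 13 in RSV+TCDD against TCDD, 0 to 4 in RSV+TCDD against RSV (0 without RSV replicate 2, 1 without either RSV+TCDD replicate), 0 to 3 in TCDD against vehicle (3 without vehicle replicate 1, RRM2, MCM10 and POLE) and 35 to 46 for the interaction of RSV and Vem. The interaction of RSV and TCDD had 0 calls under every alternative run.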
